A study of Saccharomyces cerevisiae with 17 samples.

Results

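The nuclear-encoded respiratory chain and ATP synthase of budding yeast were followed through 8 RNA-seq libraries as 38 genes, chosen by their systematic names among the 6572 features of the count tables. The set holds 3 NADH dehydrogenases, 4 subunits of complex II, 9 of complex III, 7 of complex IV, 13 of ATP synthase and 2 inhibitors of ATP synthase. Membership was by function and used no measured value, though earlier results of these data were known when the genes were chosen. All 38 genes were among the 6297 that passed the filter on low counts.

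Mitochondria of budding yeast pass electrons from NADH and succinate through the respiratory chain to oxygen, and ATP synthase uses the proton gradient this builds. Yeast has no proton-pumping complex I. NDI1 oxidises NADH on the matrix side of the inner membrane, and NDE1 and NDE2 oxidise it on the outer side. Glucose represses most of these genes, and the HAP complex, whose HAP4 subunit is the regulated activator, raises their transcription on other carbon sources.

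RNA came from a brr6-1 mutant (strain yDBK168) and from wild type (strain YPH399, called WT here). The mutant protein carries lysine for an arginine of a likely zinc finger, in a protein of the nuclear envelope, and the allele is marked with LEU2 and HIS3. Both strains are MATα with lys2-801 and ade2-10, and both also carry ura3-52, leu2-1 and Trp1-63. Each genotype is represented by 1 strain. Galactose cultures had grown on raffinose and 0.04% sucrose and received 2% galactose for 2 h, whereas glucose cultures grew on 2% glucose, so the sugar comparison is also one of these pre-cultures. The 4 groups are brr6-1 in galactose, WT in galactose, brr6-1 in glucose and WT in glucose, each with biological replicates A and B grown at 30 °C in rich medium. RNA was depleted of ribosomal RNA, so levels are relative to all other counted transcripts and say nothing of RNA per cell.

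Each library held 15059271 to 21637381 gene counts, and log2 levels of replicates correlated at 0.991 to 0.998 across all genes and at 0.980 to 0.996 across the 38. BRR6 itself was higher in brr6-1, by 3.14 ± 0.17 on the log2 scale in galactose and by 1.81 ± 0.16 in glucose; the change of 1 residue cannot be read from counts. Genes specific to α cells summed to 189 to 681 CPM, and genes specific to the opposite mating type to 59.2 to 93.7 CPM, of which STE6 made most, with MFA2 and AGA2 under 1 CPM. Of 159 tested genes of chromosome III, 133 were higher in brr6-1 in glucose and 125 in galactose, where 16.7% and 8.29% of all genes were. The 38 genes all lie on other chromosomes. The allele, the raised BRR6 level and the chromosome III difference occur together in the 1 mutant strain. Their parts in the strain differences of the 38 genes cannot be told apart and were not tested. None of the 38 overlaps another gene of RefSeq's R64 table. The 674 counted features absent from that table were not checked for overlap. The pair of WT galactose libraries stood apart for these genes: 33 of 38 were higher in A than in B, by a median of 0.32 on the log2 scale, while the median over all genes was 0.00. In the other groups 24 (brr6-1 galactose), 16 (brr6-1 glucose) and 16 (WT glucose) of 38 were higher in A, by medians between -0.14 and 0.05. Reads assigned to no feature made up 37.3% of reads in genes or in no feature in WT galactose A and 26.7% in B, and the part of this in the results was not tested.

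Levels are given as CPM, with library sizes scaled by TMM, and between genes as CPM per kb of the annotated gene span in the R64 assembly. Introns count towards that span, so intron-bearing genes such as QCR9 and QCR10 may be understated. Together the 38 genes took 1.18 and 1.14% of gene counts in brr6-1 galactose, 0.994 and 0.781% in WT galactose, 0.211 and 0.238% in brr6-1 glucose and 0.233 and 0.231% in WT glucose. Both galactose groups lay far above both glucose groups, and WT galactose had the widest gap between its libraries.

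Subunits of the same complex differed widely in level. In complex III the lowest in every group was CYT1, cytochrome c1, and the highest was QCR7, a small subunit on the matrix side. They stood at 59.6 and 1551 CPM per kb in brr6-1 galactose, 49.1 and 1247 in WT galactose, 9.91 and 373 in brr6-1 glucose and 11.6 and 541 in WT glucose. That is a 26.01-fold and 25.4-fold span in brr6-1 and WT galactose, and a 37.6-fold and 46.8-fold span in brr6-1 and WT glucose. Complex II was far more even, with SDH3 or SDH1 lowest and SDH2 highest, and spans of 2.24-fold in brr6-1 galactose, 3.14-fold in WT galactose, 1.27-fold in brr6-1 glucose and 1.64-fold in WT glucose. In complex IV COX8 was lowest in each group, at 151 and 123 CPM per kb in brr6-1 and WT galactose and at 30.3 and 24.9 in brr6-1 and WT glucose. Within ATP synthase the lowest was ATP14 in brr6-1 and ATP18 in WT, and the highest TIM11 in brr6-1 and ATP4 in WT, in both sugars.

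**Figure D1:**
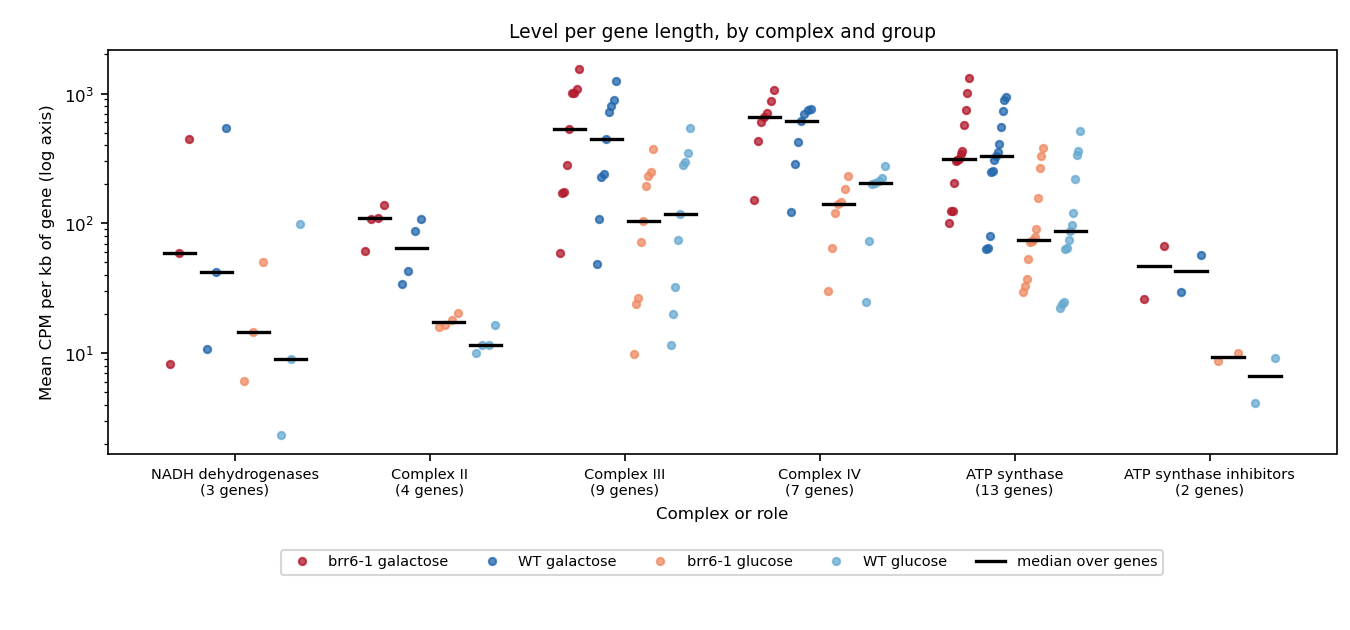
Mean level of each gene in CPM per kb of gene (log axis) by complex, with 1 point per gene and group (mean of 2 libraries) and a bar at the median over genes. The medians of all complexes sit higher in both galactose groups than in both glucose groups, and the 4 genes of complex II lie close together in glucose, between 16.0 and 20.4 CPM per kb in brr6-1 and between 10.1 and 16.5 in WT.

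The first comparison asks how the respiratory genes differ between galactose and glucose in each strain. In brr6-1 37 of 38 were higher in galactose, where 8.75% of all genes tested were called higher, with a median log2 fold change of 2.08 (all genes 0.04) and a range from 0.42 for NDE2 to 3.15 for NDE1. In WT all 38 were higher, where 24.3% of all genes were, with a median of 1.79 (all genes 0.10) and a range from 0.87 for ATP4 to 3.10 for SDH1. None of the 38 was called lower in either strain, where 7.26% (brr6-1) and 20.5% (WT) of all genes were. Only NDE2 in brr6-1 did not pass, at 0.42 ± 0.27 (adjusted p = 0.343). In each strain 37 genes exceeded a 2-fold rise, as did 4.73% of all genes in brr6-1 and 14.5% in WT. Fold changes are log2 ± SE from edgeR's quasi-likelihood test over all genes, with Benjamini-Hochberg adjusted p under 0.05 called and n = 2 libraries per group. With a library left out, 2 calls did not hold. They were STF1 in brr6-1 (adjusted p = 0.101 without galactose B of that strain and 0.0604 without its glucose A) and COX9 in WT (0.0657 and 0.0557 without WT glucose A and B). With libraries scaled by their totals alone, the median over all genes lay higher by 0.21 in brr6-1 and 0.29 in WT. The medians of the 38 relative to it were 2.03 and 1.69, as under TMM, because such scaling shifts all genes alike. Under cyclic loess, which need not shift genes alike, they were 2.18 and 1.79.

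**Figure D2:**
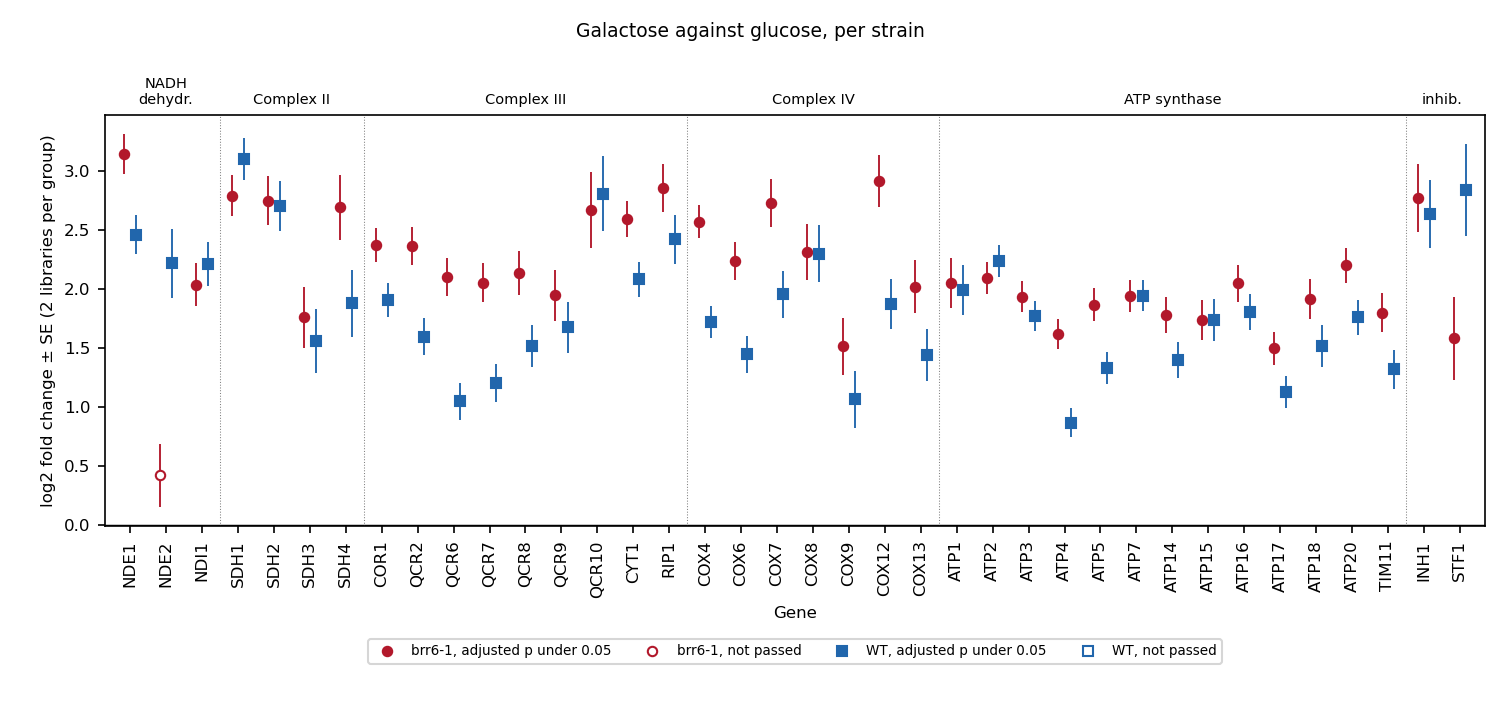
Log2 fold change of galactose over glucose for each of the 38 genes, with brr6-1 (circles) left of WT (squares) and bars of 1 SE (2 libraries per group). All points lie above 0, and the open circle is NDE2 in brr6-1, at 0.42, the value that did not pass.

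Among the NADH dehydrogenases, NDE1 (YMR145C, chromosome XIII, 554793 to 556475) was the abundant form. It had 723 and 780 CPM in brr6-1 galactose and 969 and 862 CPM in WT galactose, against 74.8 and 94.6 CPM in brr6-1 glucose and 180 and 153 CPM in WT glucose. The galactose and glucose libraries were far apart in each strain, and the rise was 3.15 ± 0.17 in brr6-1 and 2.46 ± 0.16 in WT. NDE2 (YDL085W, chromosome IV, 303211 to 304848), the second external enzyme, had 13.3 and 13.9 CPM in brr6-1 galactose and 16.96 and 18.6 CPM in WT galactose. In glucose it had 7.37 and 12.8 CPM in brr6-1 and 4.85 and 2.80 CPM in WT. In brr6-1 the glucose libraries lay under the galactose ones, 1 of them only just, whereas in WT the gene rose by 2.22 ± 0.29. NDI1 (YML120C, chromosome XIII, 28266 to 29807), the internal enzyme, rose by 2.04 ± 0.18 in brr6-1 and 2.21 ± 0.19 in WT.

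Per kb, NDE1 exceeded NDE2 by 52.7-fold and 54.6-fold in brr6-1 galactose and by 55.6-fold and 45.2-fold in WT galactose. In glucose the ratio was 9.87 and 7.17 in brr6-1 and 36.0 and 53.0 in WT. The brr6-1 glucose libraries thus held the lowest ratios of the 8, with raw NDE2 counts of 112 and 229 there and 76 and 49 in WT glucose. NDE1 also exceeded NDI1 per kb less in brr6-1, by 7.76-fold and 7.29-fold in galactose, against 11.8-fold and 14.7-fold in WT galactose, and by 2.80-fold and 4.30-fold in brr6-1 glucose, against 12.6-fold and 9.43-fold in WT glucose.

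Complex II, succinate dehydrogenase, links the TCA cycle to the chain. Its summed level was 399 and 439 CPM in brr6-1 galactose and 354 and 238 CPM in WT galactose, against 66.3 and 67.7 CPM in brr6-1 glucose and 46.5 and 45.1 CPM in WT glucose. This was 6.25-fold higher in galactose than in glucose in brr6-1 and 6.34-fold in WT, log2 ratios of 2.64 ± 0.10 and 2.66 ± 0.41 (SD of the ratio, 2 libraries per group). The flavoprotein gene SDH1 (YKL148C, chromosome XI, 169207 to 171129) had 193 and 234 CPM in brr6-1 galactose and 193 and 140 CPM in WT galactose, and 30.9 and 30.7 CPM in brr6-1 glucose and 20.5 and 18.3 CPM in WT glucose. It rose by 2.79 ± 0.18 in brr6-1 and 3.10 ± 0.18 in WT, and SDH2, the iron-sulfur subunit, by 2.75 ± 0.21 and 2.70 ± 0.21. The membrane anchors SDH3 and SDH4 rose by 1.76 ± 0.26 and 2.70 ± 0.28 in brr6-1 and by 1.56 ± 0.27 and 1.88 ± 0.28 in WT.

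Complex III, the cytochrome bc1 complex, summed to 3559 and 3532 CPM in brr6-1 galactose and 3231 and 2594 CPM in WT galactose, against 680 and 802 CPM in brr6-1 glucose and 988 and 1006 CPM in WT glucose. Galactose exceeded glucose 4.802-fold in brr6-1 and 2.90-fold in WT. All 9 subunits rose in both strains, by 1.95 to 2.86 in brr6-1 and by 1.05 to 2.81 in WT. QCR6, the acidic hinge subunit, rose by 2.10 ± 0.16 in brr6-1 and 1.05 ± 0.16 in WT, the lowest of the complex in WT. QCR7 rose by 2.06 ± 0.17 in brr6-1 and 1.21 ± 0.16 in WT. At the high end stood RIP1, the Rieske iron-sulfur protein (2.86 ± 0.21 in brr6-1, 2.42 ± 0.21 in WT), and QCR10 (2.67 ± 0.32 and 2.81 ± 0.32). QCR10 had 90.2 and 45.7 CPM in WT galactose, the widest gap of the 38 genes in that group.

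Complex IV, cytochrome c oxidase, summed to 1488 and 1437 CPM in brr6-1 galactose and 1419 and 1083 CPM in WT galactose, against 252 and 334 CPM in brr6-1 glucose and 414 and 423 CPM in WT glucose. The ratio of galactose to glucose was 5.04 in brr6-1 and 2.96 in WT. Its 7 nuclear genes measured here rose by 1.52 (COX9) to 2.91 (COX12) in brr6-1 and by 1.07 (COX9) to 2.30 (COX8) in WT.

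ATP synthase summed to 3585 and 3365 CPM in brr6-1 galactose and 3413 and 3221 CPM in WT galactose, against 977 and 948 CPM in brr6-1 glucose and 1151 and 1220 CPM in WT glucose. This was a ratio of 3.61 in brr6-1 and 2.80 in WT. Its 13 genes rose by similar amounts in brr6-1, with ATP17 lowest and ATP20 highest (2.20 ± 0.15), with an SD over genes of 0.20 where that over all genes tested was 0.64. In WT they ranged from 0.87 (ATP4) to 2.24 (ATP2), with an SD of 0.38. ATP1 and ATP2, the α and β subunits of the catalytic head, rose by 2.05 ± 0.21 and 2.09 ± 0.13 in brr6-1 and by 1.99 ± 0.21 and 2.24 ± 0.13 in WT.

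The inhibitors of ATP synthase, INH1 and STF1, which bind the enzyme and block ATP hydrolysis, were among the scarcest of the 38. INH1 had 18.3 and 16.5 CPM in brr6-1 galactose and 16.7 and 12.7 CPM in WT galactose, against 3.36 and 1.79 CPM in brr6-1 glucose and 2.81 and 1.95 CPM in WT glucose. It rose by 2.77 ± 0.29 in brr6-1 and 2.64 ± 0.29 in WT. STF1 rose by 1.59 ± 0.35 in brr6-1 and 2.84 ± 0.39 in WT, on raw counts of 31 and 45 in brr6-1 glucose and 24 and 11 in WT glucose.

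The second comparison asks how brr6-1 differs from WT in galactose. Of the 38 genes 9 were called higher and 0 lower, where 22.6% of all genes were called (8.29% higher and 14.3% lower). Those higher were SDH4 and SDH3 of complex II, QCR6 and RIP1 of complex III, COX7 of complex IV, and ATP14, ATP15, ATP18 and TIM11 of ATP synthase. Of all 38 estimates 30 were above 0, where 50.9% of all genes were, and the median was 0.26 (all genes 0.01). Summed levels gave log2 ratios of brr6-1 to WT of 0.53 ± 0.42 (SD) for complex II, 0.29 ± 0.22 for complex III, 0.24 ± 0.28 for complex IV, 0.07 ± 0.09 for ATP synthase, 0.14 ± 0.32 for its inhibitors and -0.22 ± 0.16 for the NADH dehydrogenases. The NADH dehydrogenases were the group below 0, with 821 and 892 CPM in brr6-1 galactose and 1062 and 934 CPM in WT galactose, libraries that did not overlap. That sum was mostly NDE1. The 3 genes ran from -0.38 to 0.50, with NDI1 the one above 0, and none passed. NDI1 did pass as higher under some alternatives, such as cyclic loess. The sums of ATP synthase and of its inhibitors overlapped between the strains.

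SDH4 (YDR178W, chromosome IV, 817950 to 818495) had 49.5 and 67.9 CPM in brr6-1 galactose against 29.8 and 16.7 CPM in WT galactose. The libraries of the strains did not overlap, and the difference was 1.33 ± 0.25 (adjusted p = 0.00545). SDH3 had 38.6 and 34.8 CPM against 25.6 and 15.2 CPM in WT, a difference of 0.84 ± 0.24 (adjusted p = 0.0329). ATP18, subunit i/j of the membrane part (YML081C-A, chromosome XIII, 103983 to 104162), had 22.7 and 22.3 CPM in brr6-1 and 12.6 and 10.4 CPM in WT. Its replicates agreed closely and it was higher by 0.97 ± 0.16 (adjusted p = 0.00218). ATP15, the ε subunit of the catalytic head, and ATP14, subunit h of the stalk, were each higher by 0.64 (SE 0.16 and 0.14; adjusted p = 0.0182 and 0.0117). TIM11, subunit e, where ATP synthase dimers meet, was higher by 0.56 ± 0.16 (adjusted p = 0.0319). RIP1 had 123 and 104 CPM in brr6-1 and 85.4 and 55.0 CPM in WT, a difference of 0.69 ± 0.19 (adjusted p = 0.0257). QCR6 was higher by 0.58 ± 0.16 and COX7 by 0.59 ± 0.18 (adjusted p = 0.0245 and 0.0417).

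How many of these genes passed depended on single galactose libraries of both strains. Without WT galactose replicate A, 18 were higher with a median of 0.42. Without WT galactose replicate B, only ATP18 and SDH4 of the 9 still passed, with a median of 0.07, and the other 7 had adjusted p from 0.0609 to 0.199. The same 7 did not pass without brr6-1 galactose replicate A (adjusted p from 0.0800 to 0.204) or B (0.0546 to 0.103). With only the 4 galactose libraries in the fit 5 were higher. Under library totals alone 16 were, while the median of all genes moved by 0.24 and 75.03% rather than 36.7% of all calls were higher.

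In glucose the same strains are compared in the repressing sugar. Of the 38 genes 9 were lower and 5 higher in brr6-1, where 36.2% of all genes were called (19.5% lower and 16.7% higher), so neither share stands far from that of all genes. The median was -0.18 (all genes 0.03). Lower were NDE1, QCR2, QCR6, QCR7, COX4, COX6, ATP3, ATP4 and ATP5, and higher were NDE2, NDI1, SDH1, ATP15 and ATP18. By complex, all 4 genes of complex II had estimates above 0 and 8 of 9 in complex III had estimates below 0, though 1 and 3 of them passed.

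NDE1 was lower by 0.97 in brr6-1 (log2 -0.97 ± 0.16, adjusted p = 0.00280), at the 74.8 and 94.6 CPM given above against 180 and 153 CPM in WT. NDE2 was higher by 1.42 ± 0.30 (adjusted p = 0.00731) and NDI1 by 0.68 ± 0.19 (adjusted p = 0.0204). COX4 (YGL187C, chromosome VII, 149704 to 150171), a zinc-binding subunit of cytochrome c oxidase, had 51.3 and 60.7 CPM in brr6-1 glucose and 95.1 and 103 CPM in WT glucose. The libraries of the strains did not overlap, and the difference was -0.82 ± 0.13 (adjusted p = 0.00283). ATP4 (YPL078C, chromosome XVI, 408010 to 408744), subunit b of the stalk, had 242 and 241 CPM in brr6-1 and 379 and 376 CPM in WT, with replicates within a few CPM of each other, and differed by -0.64 ± 0.12 (adjusted p = 0.00503). ATP3, the γ subunit of the rotor, and ATP5, the stalk subunit OSCP, differed by -0.42 ± 0.13 and -0.49 ± 0.14 (adjusted p = 0.0305 and 0.0206).

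In complex III, QCR2 (YPR191W, chromosome XVI, 919381 to 920487), a core protein and the gene of the 38 with the highest mean log2 CPM, had 191 and 240 CPM in brr6-1 glucose against 322 and 335 CPM in WT glucose, a difference of -0.61 ± 0.15 (adjusted p = 0.0143). QCR7 and QCR6 differed by -0.54 ± 0.16 and -0.47 ± 0.16 (adjusted p = 0.0279 and 0.0389). COX6 differed by -0.58 ± 0.16 (adjusted p = 0.0173). SDH1 was higher by 0.67 ± 0.17 (adjusted p = 0.0162), and the small subunits ATP15 and ATP18 by 0.64 ± 0.19 and 0.57 ± 0.18 (adjusted p = 0.0249 and 0.0365). ATP18 had 6.12 and 5.77 CPM in brr6-1 and 4.02 and 4.01 CPM in WT, so both sugars placed every brr6-1 library above the WT ones for this gene.

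**Figure D3:**
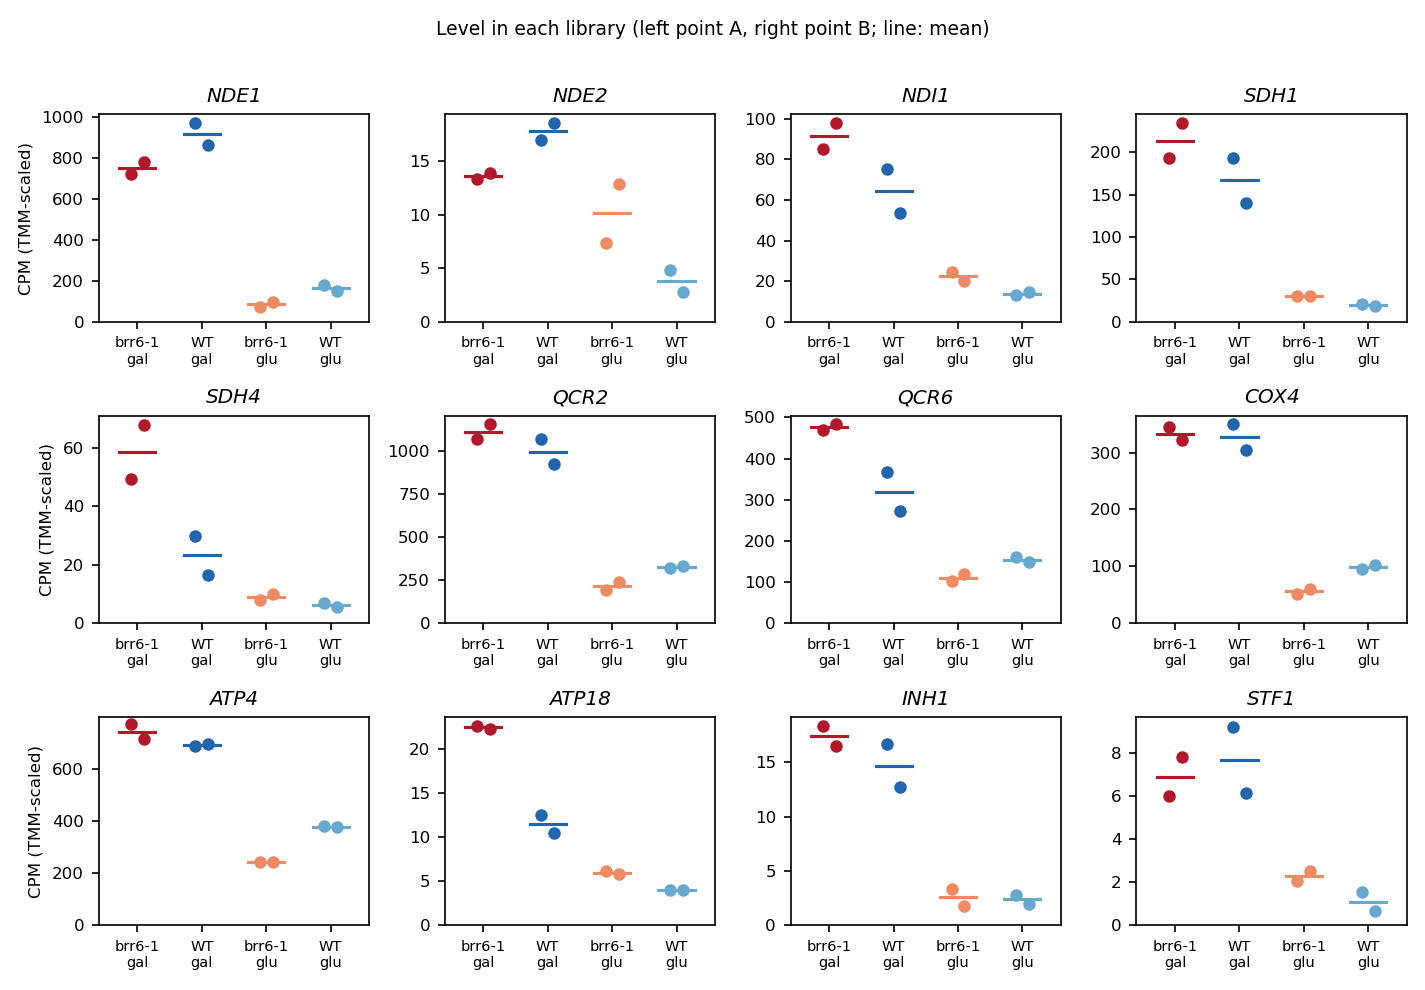
Level (TMM-scaled CPM, axes from 0) of 12 of the genes in each of the 8 libraries, A left and B right, with a line at the group mean. For ATP18 the brr6-1 libraries lie above the WT libraries in each sugar, for COX4 and ATP4 the brr6-1 libraries lie below WT in glucose, and for NDE2 the brr6-1 glucose libraries reach 12.8 CPM.

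Summed levels in glucose gave log2 ratios of brr6-1 to WT of 0.55 ± 0.04 (SD) for complex II, -0.43 ± 0.17 for complex III, -0.53 ± 0.29 for complex IV, -0.30 ± 0.07 for ATP synthase, 0.53 ± 0.58 for its inhibitors and -0.65 ± 0.24 for the NADH dehydrogenases. Complex II was 1.46-fold higher, and complex III, complex IV, ATP synthase and the NADH dehydrogenases had sums below WT. The sum of the NADH dehydrogenases was mostly NDE1, whereas NDE2 and NDI1 were called higher. Some of the directions of these sums depend on scaling. Under cyclic loess the inhibitors turned to -0.026. With totals alone the log2 ratio for ATP synthase turned to 0.024, and the other sums kept their signs, with complex II at 0.87. There 8 of the 38 genes were called higher and 2 lower (NDE1 and COX4). The median of all genes moved by 0.33 in that scaling, with 86.5% rather than 46.1% of all calls higher. Relative to it the median of the 38 was -0.22, as under TMM, because such scaling shifts all genes alike. That relative median was -0.06 under cyclic loess and -0.11 with at least 100 counts in 2 libraries. Under cyclic loess 3 genes were higher and 3 lower. COX4, ATP4 and NDE1 passed with each library left out, and COX4 and NDE1 under every alternative run. Without brr6-1 glucose replicate A, or WT glucose replicate A or B, most or all of the other calls were lost. In those fits fewer of all genes passed as well. The median of the 38 was then -0.19, -0.23 and -0.21, in that order. Without brr6-1 glucose replicate B, ATP18 did not pass (adjusted p = 0.0600) and COX12 and COX13 were added to those lower.

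**Figure D4:**
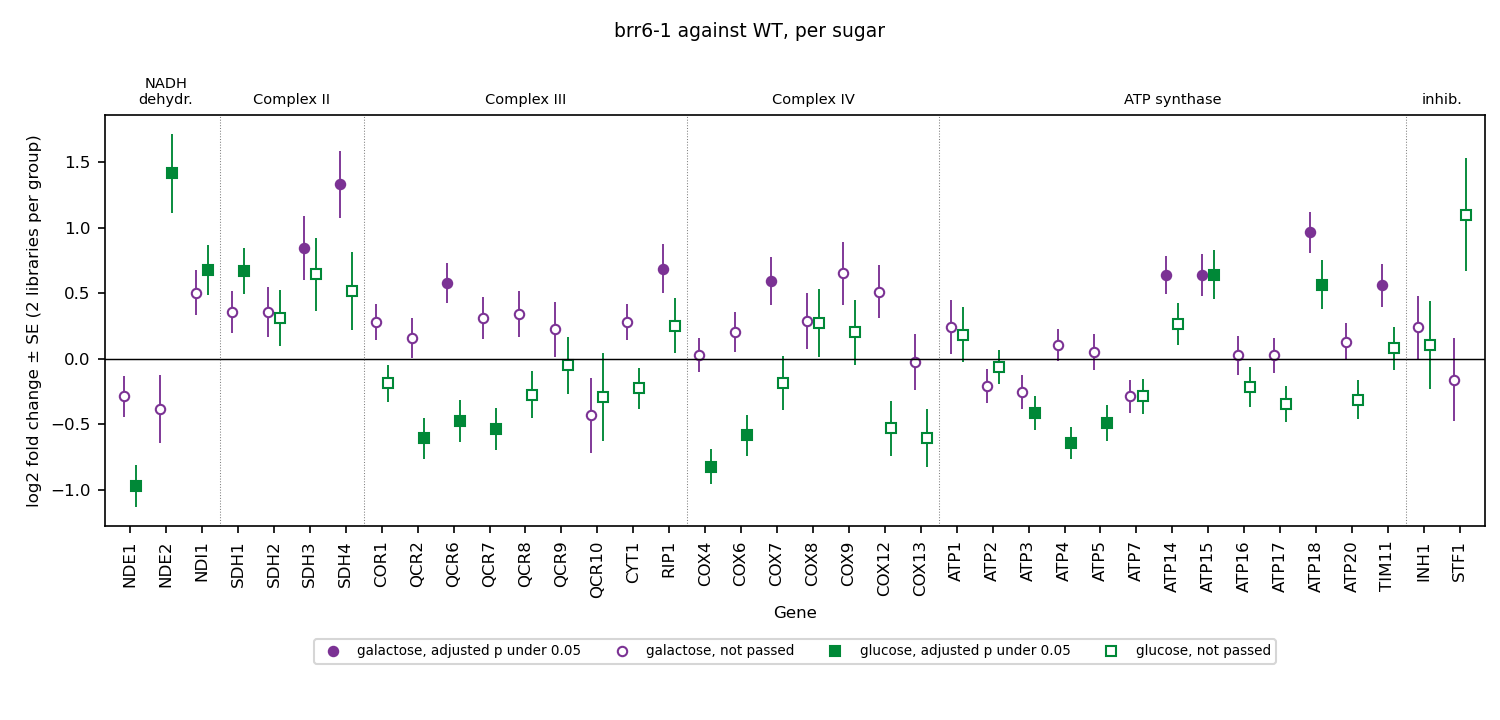
Log2 fold change of brr6-1 over WT for each of the 38 genes, with galactose (circles) left of glucose (squares), bars of 1 SE (2 libraries per group) and filled symbols for adjusted p under 0.05. The 9 filled circles all lie above 0, whereas 9 filled squares lie below and 5 above.

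The strain effect in glucose ran with abundance, over these genes as over all genes. Across the 38 genes the Spearman correlation of the log2 difference with the mean log2 CPM was -0.74 in glucose and -0.30 in galactose; over all 6297 genes it was -0.57 and -0.35 (descriptions across genes, which share the same libraries). Of the 15 genes under 6 log2 CPM, 4 were higher and 0 lower in glucose, where 21.8% and 8.05% of all genes of that range were. Their median was 0.31 (all genes of that range 0.29). Among the 8 genes over 8 log2 CPM, 0 were higher and 5 lower, where 8.46% and 39.6% of all genes of that range were. Their median was -0.51 (all genes of that range -0.31). In galactose 7 of the same 15 genes were higher and 0 lower, where 7.77% and 10.6% of all genes of that range were. Of the same 8 genes 1 was higher and 0 lower, where 8.80% and 22.9% were. The medians of these low and high groups were 0.50 and 0.20, where all genes of those ranges had 0.08 and -0.11. The part of abundance in the differences of single genes was not tested.

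**Figure D5:**
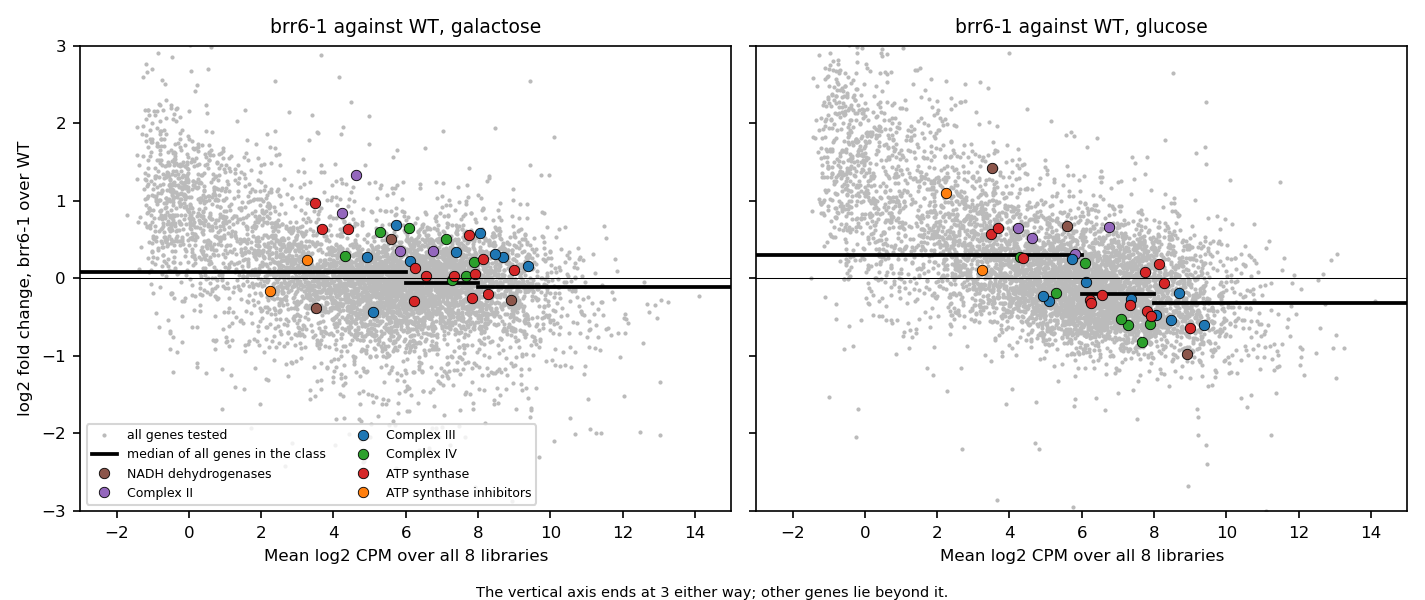
Log2 fold change of brr6-1 over WT against mean log2 CPM over the 8 libraries, galactose left and glucose right, for all genes tested (grey) and the 38 genes (coloured by complex), with lines at the median of all genes in 3 ranges of abundance. In glucose the abundant genes, such as QCR2, NDE1 and ATP4, lie below 0 and scarce ones such as NDE2 and STF1 above; the axis ends at 3 either way, beyond which lie 18 (galactose) and 57 (glucose) other genes and none of the 38.

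The third comparison asks whether the brr6-1 effect differs between the sugars. The difference, galactose minus glucose, passed for 4 of the 38 genes, where 5.59% of all genes were called (1.65% higher and 3.94% lower). It was positive for QCR6, COX4 and ATP4 and negative for NDE2. For QCR6 (YFR033C, chromosome VI, 224326 to 224769) it was 1.05 ± 0.22 (adjusted p = 0.0290), with 469 and 485 CPM in brr6-1 galactose, 367 and 272 in WT galactose, 102 and 120 in brr6-1 glucose and 161 and 148 in WT glucose. The brr6-1 libraries were thus above WT in galactose and below WT in glucose. COX4 had 345 and 321 CPM in brr6-1 galactose and 350 and 305 CPM in WT galactose, overlapping libraries, and its difference was 0.85 ± 0.19 (adjusted p = 0.0336). ATP4 had 771 and 714 CPM in brr6-1 galactose, just above the 687 and 693 CPM in WT galactose, a strain difference that did not pass there (0.11, adjusted p = 0.550). The difference between the sugars for ATP4 was 0.75 ± 0.17 (adjusted p = 0.0383). NDE2 had -1.80 ± 0.40 (adjusted p = 0.0336).

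The median difference over the 38 genes was 0.42 (all genes -0.05), with 30 of 38 above 0 (46.3% of all genes). By complex it was 0.78 for complex IV, 0.51 for complex III, 0.37 for ATP synthase, 0.12 for complex II, -0.17 for the NADH dehydrogenases and -0.56 for the inhibitors. None of the 4 calls held with every library left out. All 4 were lost without brr6-1 galactose replicate A or B, or WT glucose replicate A or B. In those fits fewer of all genes passed as well, so the loss was not particular to these genes. The median difference over the 38 was then 0.36, 0.42, 0.51 and 0.47, in that order. Without WT galactose replicate A, ATP4 (0.0599) and NDE2 (0.0592) did not pass and 6 genes were positive. Without brr6-1 glucose replicate A only NDE2 passed (the others 0.0504 to 0.0598), and without B 9 genes were positive and NDE2 was lost (0.0552). Under cyclic loess none passed (0.0576 to 0.0681), and DESeq2's Wald test called 8 positive. Across the 38 genes the brr6-1 effects in galactose and glucose, which share no library, had Pearson r = 0.30 and Spearman rho = 0.44, as a description.

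Other genes of the pathway were counted from lists. Subunits encoded by mitochondrial DNA (COX1, COX2, COX3, COB, ATP6, ATP8 and OLI1) were not found among the counted features and could not be analysed here. Whether the cells kept their mitochondrial DNA was thus not checked. Of 53 assembly factors, 25 were higher and 0 lower in galactose than in glucose in brr6-1, and 26 and 0 in WT, with medians of 0.50 and 0.51, well under those of the 38 subunits. Of all genes tested, 8.75% were higher and 7.26% lower in brr6-1, and 24.3% and 20.5% in WT. Between strains 8.29% of all genes were higher and 14.3% lower in brr6-1 in galactose, and 16.7% and 19.5% in glucose. Smaller shares of the assembly factors were called, 3 higher and 1 lower in galactose and 3 higher and 5 lower in glucose. These include AEP2, needed for the OLI1 mRNA (0.63 ± 0.13 in galactose), ATP23, an ATP synthase assembly protease (0.60 ± 0.12 in galactose), COX18, which helps insert COX2 (-0.70 ± 0.14 in glucose), and ATP11, a chaperone of the catalytic head (-0.48 ± 0.13 in glucose). The adjusted p of each was over 0.05 with at least 1 library left out, at 0.0760 for AEP2 and 0.0748 for ATP23 without brr6-1 galactose replicate A, 0.0551 for COX18 without WT glucose replicate B and 0.119 for ATP11 without brr6-1 glucose replicate A. Of 11 coenzyme Q synthesis genes, 3 were higher and 1 lower in galactose in brr6-1, 2 and 2 in WT, and 0 were higher and 1 lower in brr6-1 against WT in galactose and 0 and 2 in glucose. Of 6 carriers of nucleotides and phosphate in the inner membrane, 3 were higher and 1 lower in galactose in each strain; between strains 0 were higher and 2 lower in galactose (PIC2 and AAC3) and none passed in glucose.

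Of 5 HAP regulators, 2 were higher and 1 lower (HAP1) in galactose than in glucose in brr6-1, and 4 higher and 0 lower in WT. Over all genes 8.75% were higher and 7.26% lower in brr6-1, and 24.3% and 20.5% in WT. HAP4 had 85.4 and 79.5 CPM in brr6-1 galactose and 88.6 and 66.3 CPM in WT galactose, against 15.1 and 10.0 CPM in brr6-1 glucose and 11.9 and 14.3 CPM in WT glucose. It rose in galactose by 2.72 ± 0.21 in brr6-1 and 2.57 ± 0.21 in WT, and the strains had overlapping libraries in both sugars (0.09 ± 0.19 and -0.07 ± 0.22). HAP1, the haem-responsive activator of respiratory genes, had 138 and 126 CPM in brr6-1 galactose and 430 and 534 CPM in WT galactose, a difference of -1.86 ± 0.15 (adjusted p = 4.15e-05). In glucose it had 230 and 201 CPM in brr6-1 and 329 and 329 CPM in WT, a difference of -0.61 ± 0.14 (adjusted p = 0.0101, but 0.0567 and 0.0585 without WT glucose replicate A and B). The effect was larger in galactose by -1.25 ± 0.20 (adjusted p = 0.00919, and 0.0890 and 0.0999 without the same libraries). HAP2 and HAP3 did not pass between strains in either sugar (estimates of -0.08 and 0.14 in galactose, 0.51 and -0.38 in glucose), and HAP5 was at -0.40 ± 0.12 in galactose (adjusted p = 0.0416, but 0.223 without brr6-1 galactose replicate A) and -0.11 ± 0.13 in glucose.

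Subunits outside the 38 genes include isoform pairs. COX5A, the aerobic form of its subunit, was 13.1 and 15.4 times COX5B per kb in brr6-1 galactose and 14.4 and 9.26 times in WT galactose, against 0.472 and 0.351 in brr6-1 glucose and 0.890 and 0.789 in WT glucose. COX5A was lower in brr6-1 in glucose (-1.03 ± 0.21, adjusted p = 0.00597) and had -0.57 ± 0.19 in galactose (adjusted p = 0.0570). COX5B was lower in brr6-1 in galactose (-0.83 ± 0.23, adjusted p = 0.0274), a call that did not hold with any 1 of the galactose libraries left out (adjusted p from 0.0579 to 0.153). CYC1, the main cytochrome c, had 5.86 and 14.9 CPM in brr6-1 glucose against 28.9 and 20.7 CPM in WT glucose (-1.24 ± 0.35, adjusted p = 0.0224), and 0.63 ± 0.31 in galactose. Its call in glucose was lost without brr6-1 glucose replicate A (0.0860) and WT glucose replicate A or B (0.141 and 0.0595). CYC7, the minor cytochrome c, was higher in brr6-1 in glucose (0.82 ± 0.27, adjusted p = 0.0357, but 0.207 without brr6-1 glucose replicate B and 0.163 and 0.186 without WT glucose replicate A and B). ATP19, subunit k, was higher in brr6-1 in galactose and in glucose, by 1.022 ± 0.23 and 0.83 ± 0.27, with adjusted p up to 0.0920 in galactose and 0.231 in glucose with a library left out. Of these 6 genes, 5 were higher and COX5B lower in galactose than in glucose in each strain, beside the shares of all genes given above. The difference of the brr6-1 effect between the sugars passed for CYC1 (1.87 ± 0.47, adjusted p = 0.0483), but only without brr6-1 glucose B did it pass among the fits with a library left out (0.0504 to 0.207 in the others). COX26 was at 30.0 and 7.17 CPM in the WT galactose libraries and passed in neither sugar between strains. Paralogs of complex II genes, with which reads may be shared, gave 1 call between the strains: SDH9, a close copy of SDH1, was higher in brr6-1 in glucose (1.44 ± 0.41, adjusted p = 0.0214, and up to 0.146 with a library left out). Between the sugars SHH3 was higher in galactose in WT (1.70 ± 0.57, adjusted p = 0.0331, and up to 0.187 with a library left out), and none of the 3 passed in brr6-1.

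ChIP was done on cells that carried FLAG-tagged Brr6N, the same fragment without the zinc finger, or an empty vector. The authors' deposited table lists 30 genes at 22 peaks, and none of the 38 genes is among them. Beside the 6572 features counted for RNA the 30 are few, so a set of 38 would seldom meet them. Binding at the 38 genes was not tested.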

How the data were processed

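The 8 RNA files hold raw read counts per gene, deposited 1 file per library and made by the authors with cutadapt, TopHat and HTSeq on R64, per the submitters' processing notes. The library kit is directional per the labels' protocols; which strand option HTSeq ran with is not stated there. The HTSeq total lines were left out. Gene names and spans came from RefSeq's R64 table, which matched 5898 of 6572 features. Counts were scaled by TMM and tested with edgeR 4.0.16 (R 4.3.3) in a quasi-likelihood fit of all 8 libraries in 4 groups, with 4 residual degrees of freedom, on 6297 genes that passed filterByExpr at a minimum count of 10. Adjusted p is Benjamini-Hochberg over all genes within each of 5 comparisons. The SE was taken from the F statistic, as the fold change's size divided by √F. The script was tested on simulated data. Depth was 15059271 to 21637381 gene counts, of which the scarcest gene, STF1, had 11 to 203.

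Alternatives were DESeq2 1.42.0 size factors and Wald test, library totals alone, cyclic loess in limma 3.58.1, no filter, at least 100 counts in 2 libraries, a replicate block, only the libraries compared, no chromosome III genes, and each library left out in turn. For genes outside the 38 they were added after the data were seen. Of the deposited ChIP table only the listed transcripts were used. The 38 genes and all lists were chosen with earlier results of these data known. All 38 genes could be named, as could all genes of the short lists and, from the longer lists, up to 4 genes with the smallest adjusted p between strains. The replicates are biological per the series' design text, and p-values measure the spread between these libraries. Deviations of same-lettered libraries correlated at -0.10 to 0.21. With 2 libraries per group this cannot decide whether the letters pair libraries, and the main fit did not pair them. Replicates of every group differed by more than counting noise. Figures were drawn with matplotlib 3.10.9.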

Additional observations from a re-analysis of the deposited data

Results flagged for a closer look

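The effect of brr6-1 differed between the sugars for 4 of the 38 genes by the test of the difference itself. This was edgeR's quasi-likelihood interaction with adjusted p over all genes, of which 5.59% were called (1.65% higher and 3.94% lower). Galactose minus glucose, the log2 difference was 1.05 for QCR6, 0.85 for COX4, 0.75 for ATP4 and -1.80 for NDE2. None of these held with every library left out, as given above.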

How the results depend on the processing

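Values are given for the alternatives that moved a count by over 1.5 times or a level by more than its SD. In glucose, 8 of the 38 genes were higher and 2 lower in brr6-1 with library totals alone, and 3 and 3 with cyclic loess (5 and 9 as reported). In galactose 16 were higher with totals alone and 5 with only the libraries compared (9 as reported). The difference between the sugars was positive for 1 gene with totals alone, for 0 (and negative for 0) with loess, and for 8 with DESeq2's Wald test, which called 617 of all genes against 352. With totals alone, the share of all calls that were higher was 80.9% rather than 54.7% for galactose in brr6-1, 79.7% rather than 54.3% in WT, and 18.4% rather than 29.5% for the difference.

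With each library left out, the genes higher in glucose ranged from 0 to 4, those lower from 3 to 11, and all genes called from 516 to 2400 (2280 as reported). In galactose they ranged from 2 to 18 and from 423 to 1801 (1423 as reported). All genes called between the sugars ranged from 492 to 924 in brr6-1 (1008 as reported) and from 1548 to 2931 in WT (2820 as reported). For the difference, 0 to 9 were positive, 0 to 1 negative, and 3 to 816 of all genes passed. Where a group was left with 1 library, it was assumed to vary like the others.

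Log2 ratios of summed levels, brr6-1 to WT in glucose, were -0.11 (complex III), -0.20 (complex IV), 0.024 (ATP synthase), 0.87 (complex II), -0.33 (NADH dehydrogenases) and -0.052 (all 38) with totals alone, and -0.20 (complex III), -0.093 (ATP synthase) and -0.17 (all 38) with loess. In galactose totals alone gave 0.53 (complex III), 0.30 (ATP synthase), 0.018 (NADH dehydrogenases) and 0.39 (all 38). The signs of ATP synthase in glucose and of the NADH dehydrogenases in galactose turned with totals alone, and those of the inhibitors with loess (-0.026 in glucose and -0.099 in galactose, against 0.53 and 0.14). Galactose to glucose in brr6-1, totals alone gave 2.47 (complex III), 2.06 (ATP synthase), 2.85 (complex II), 3.08 (NADH dehydrogenases) and 2.37 (all 38), and loess 1.96 (ATP synthase) and 2.27 (all 38). In WT totals alone gave 1.83 (complex III), 1.86 (complex IV), 1.78 (ATP synthase), 2.74 (NADH dehydrogenases) and 1.92 (all 38), and loess 1.84 (complex III), 1.74 (ATP synthase), 2.72 (NADH dehydrogenases) and 1.88 (all 38). The cause was not tested beyond the scaling itself.

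For single genes of the 38, 107 calls were lost, 46 gained and 0 reversed over all comparisons and alternatives, of which 79 losses and 21 gains came with a library left out; a sign change between values that did not pass was not counted. COX26 between strains in galactose was 1.32 without WT galactose replicate A and -0.75 without B, against -0.06. With the replicate block 5 genes were higher and 10 lower in glucose (COX13 added), and no other count of the 38 genes moved. Whether the letters pair the libraries was not settled.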
